A study of Rattus norvegicus with 26 samples.

Results

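Axon guidance ligands and receptors were described across primary rat brain cell cultures: the semaphorins and their plexin and neuropilin receptors, the ephrins and Eph receptors, the Slit and Robo proteins, and the netrins with their Unc5 receptors. Members were the genes whose symbols begin with Sema3 to Sema7, Plxn, Nrp1, Nrp2, Epha, Ephb, Efna, Efnb, Robo, Slit1 to Slit3, Ntn or Unc5. This rule uses names and no measured pattern, but it was chosen with earlier results of these data known. It found 58 of the 14217 genes on the array. Of these, 28 encode ligands and 28 encode receptors. Another 2 matched by name only: Unc50, which encodes a Golgi protein, and Unc5cl, which is not a netrin receptor. Each gene was read from 1 probe set (a group of short oligonucleotides that report 1 transcript), the one with the highest mean over all arrays.

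Cells from the cerebral cortex of rat pups at postnatal day 1 were grown as neuron, astrocyte, oligodendrocyte or microglia cultures, with 4 biological replicates of each. Their RNA was hybridised to Affymetrix arrays, and the 16 culture arrays were joined by 10 arrays of RNA mixtures, 2 replicates of each of 5 mixtures. The mixtures NA1 to NA3 combined neuron with astrocyte RNA, the neuronal fraction being 0.25 in NA1, 0.5 in NA2 and 0.75 in NA3. In NAO, a fraction of 0.5 came from neurons and 0.25 each from astrocytes and oligodendrocytes, and NAOM added a fraction of 0.1 from microglia, with 0.2 each from astrocytes and oligodendrocytes. Strain, sex, days in culture and any sorting step are not given in the sources used here. Neither is how far the replicate cultures were independent, so p-values measure the spread between these cultures.

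Guidance cues steer a growing axon by attracting or repelling its growth cone, the motile tip that carries the receptors. Class 3 semaphorins are secreted and act through a neuropilin that binds the cue and a plexin that signals, while most other semaphorins are membrane proteins that bind plexins directly. Ephrins are tethered to the cell surface and signal on contact, Slits are secreted repellents read by Robo receptors, and netrin-1 attracts through Dcc or repels through Unc5 receptors. Glial and immune cells also make many of these proteins, where they take part in migration and cell contact.

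All values are log2 expression, so a difference of 1 is a doubling. The median log2 value per culture array lay between 5.25 and 5.31, and a level below 5.25 is called dim here, since no detection calls were used here and a fold against such a level may be too small. As lists, cell type markers had their highest mean in the cultures of that label. Single markers were less clear. Stmn2 of the neuron list averaged 13.19 in neuron but also 11.47 in astrocyte cultures. S100b of the astrocyte list averaged 11.87 in astrocyte and 10.45 in neuron cultures. Slc1a2, Opalin and Cspg4 were dim in every culture by their means. The mean over the 10 neuron markers was 10.55 to 10.98 in neuron cultures and 4.91 to 6.47 elsewhere, and that over the 11 microglia markers was 10.24 to 10.98 in microglia cultures. The cultures were not pure. The microglia list reached 7.85 to 8.92 in oligodendrocyte cultures against 4.39 to 5.83 in neuron and astrocyte cultures, and the list of 9 oligodendrocyte markers reached 6.67 to 8.07 in microglia cultures. The astrocyte list (9 genes) reached 7.42 and 8.26 in neuron replicates 1 and 2 but 9.62 and 9.35 in replicates 3 and 4. In astrocyte cultures it averaged 9.85 to 11.06, with replicate 4 the lowest. Astrocyte replicate 4 stood apart from replicates 1 to 3, with fibroblast and meningeal markers (9 genes) at 8.19 against 6.02 to 6.16 and ependymal markers (4 genes) at 5.04 against 7.12 to 8.40. The description of microglia replicate 4 reads as a mixture, against its title and cell type. Its microglia marker mean was 10.98, the upper end of the range above, where replicates 1 to 3 had 10.24, 10.76 and 10.91. All 7 endothelial markers were dim in every culture by their means. In such bulk cultures, fewer cells of a type and less RNA per cell cannot be told apart.

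In 1 limma fit, each culture was set against the mean of the other 3. Calls needed a log2 difference of at least 1 and an adjusted p (Benjamini-Hochberg, over all 31042 probe sets) under 0.05. In neuron cultures 17 of the 58 members (29.3%) were higher and 9 (15.5%) lower, where 13.1% of all genes were higher and 15.5% lower. In astrocyte cultures 12 members (20.7%) were higher and 7 (12.1%) lower, beside 11.6% and 8.82% of all genes. Oligodendrocyte cultures had 8 members higher (13.8%) and 14 lower (24.1%), beside 6.77% and 6.06%. Microglia cultures had 5 higher (8.62%) and 15 lower (25.9%), beside 8.74% and 11.2%. The members' shares were thus above those of all genes for higher calls in neuron, astrocyte and oligodendrocyte cultures, and for lower calls in astrocyte, oligodendrocyte and microglia cultures. The members' median difference was 0.21 in neuron cultures, where that of all genes was -0.10, and it was -0.08 in astrocyte, -0.37 in oligodendrocyte and -0.34 in microglia cultures, where all genes had -0.01, -0.04 and 0.04. Without microglia replicate 4, microglia cultures had 4 members higher and 14 lower. Without astrocyte replicate 4, astrocyte cultures had 10 higher and 9 lower. In all, 40 members (69%) were called in at least 1 of these comparisons, as were 5689 of all 14217 genes. Dim in every culture were 9 members (15.5%) and 3320 of all genes. The part of this in the shares of calls was not tested.

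The calls were then split by role. Of the 28 receptors, 10 were higher in neuron cultures, 5 in astrocyte, 1 in oligodendrocyte and 5 in microglia cultures. Of the 28 ligands, 7 were higher in neuron, 7 in astrocyte and 7 in oligodendrocyte cultures, and 0 in microglia cultures. Lower calls numbered 4 ligands and 5 receptors in neuron cultures, 6 and 1 in astrocyte cultures, 7 and 7 in oligodendrocyte cultures, and 8 and 7 in microglia cultures. Of all genes, 13.1% were higher and 15.5% lower in neuron cultures, and 11.6% and 8.82% in astrocyte cultures. The shares were 6.77% and 6.06% in oligodendrocyte and 8.74% and 11.2% in microglia cultures. The highest mean lay in neuron cultures for 15 receptors (53.6%) and 9 ligands (32.1%), beside 3626 of all 14217 genes. It lay in astrocyte cultures for 7 receptors (25%) and 9 ligands (32.1%), beside 3719 of all genes. The difference between ligands and receptors was itself not tested.

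**Figure D1:**
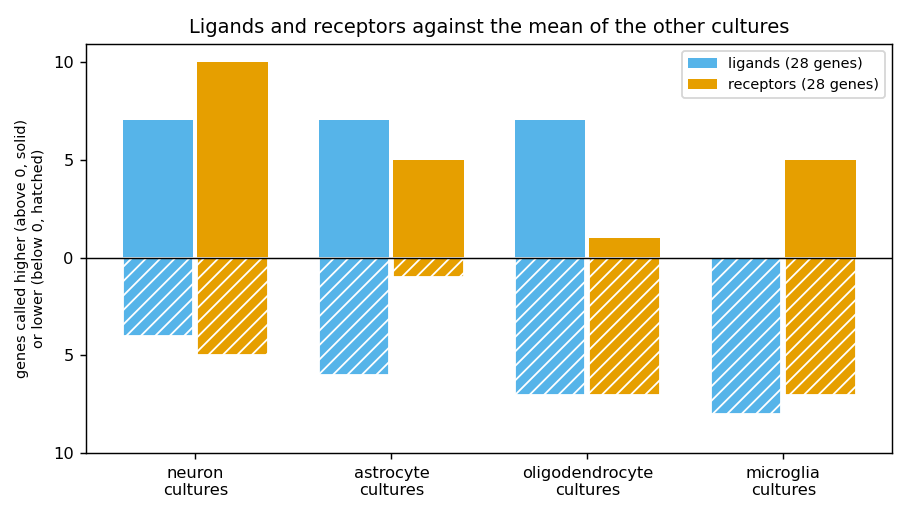
Number of ligand genes (blue, of 28) and receptor genes (orange, of 28) called higher (solid bars, above 0) or lower (hatched bars, below 0) in each culture than in the mean of the other 3. Oligodendrocyte cultures had 7 ligands but 1 receptor higher, and microglia cultures had 0 ligands and 5 receptors higher. Of all genes, 6.77% were higher in oligodendrocyte and 8.74% in microglia cultures.

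A stricter count took members that passed the same thresholds against each of the other 3 cultures. In neuron cultures 12 members (20.7%) were higher than in each other culture and 3 (5.17%) lower, beside 8.22% and 6.91% of all genes. In astrocyte cultures 6 (10.3%) were higher and 1 (1.72%) lower, beside 5.91% and 1.5%. In oligodendrocyte cultures 7 (12.1%) were higher, beside 1.7% of all genes, and 0 lower, beside 0.225%. In microglia cultures 1 was higher and 1 lower (1.72% each), beside 3.65% and 1.79%. Most lower calls against the mean of the other cultures fell on members called higher in another culture. These were all 9 in neuron, all 7 in astrocyte, all 14 in oligodendrocyte and 13 of the 15 in microglia cultures. A lower call needs a higher level elsewhere, so this overlap is partly built in, and its share over all genes was not computed.

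**Figure D2:**
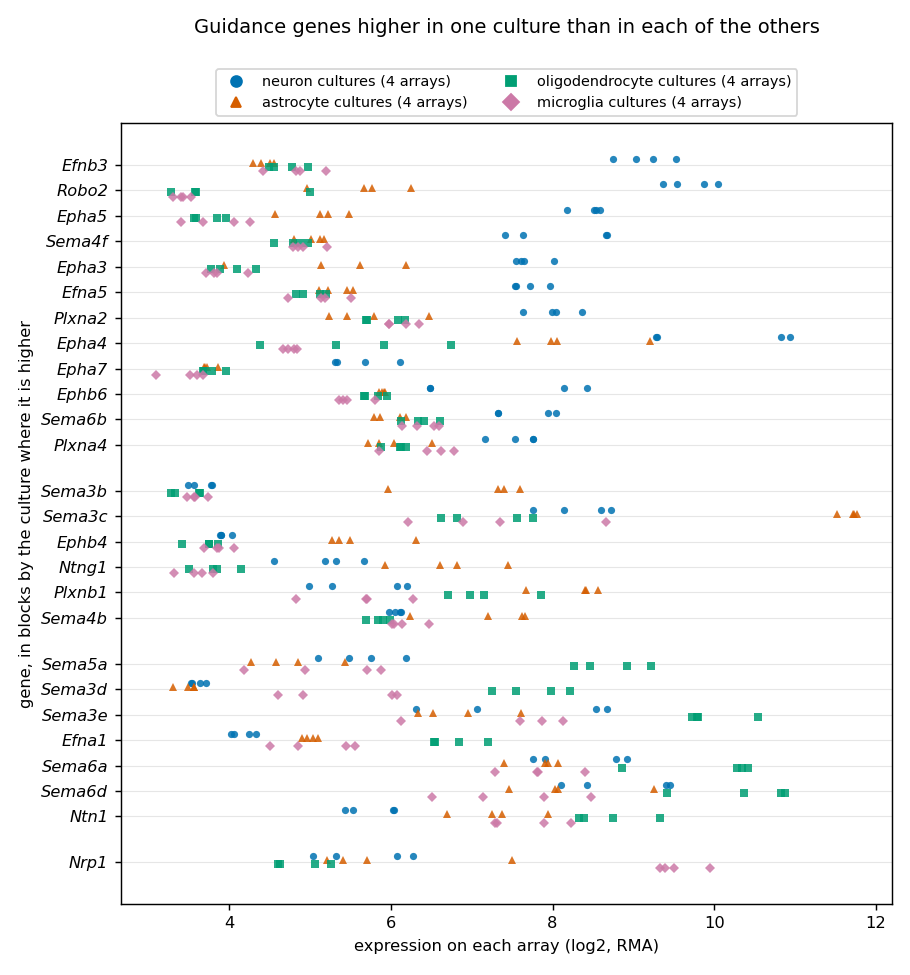
Log2 expression of the 26 members that were higher in 1 culture than in each other culture, with 1 point per array (circles neuron, triangles astrocyte, squares oligodendrocyte, diamonds microglia, 4 arrays each). Genes stand in blocks by the culture where they are higher. Efnb3 and Robo2 have the widest gaps in the neuron block, and Nrp1 is the lone gene of the microglia block.

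RefSeq's promoter table (build GRCr8) held 44 of the 58 members. The table gives 1 transcript start per gene, which was the outermost 5′ end of the annotated gene for 17 of the 44 and lay inside the gene for 27. The 250 bases before that start are shown for 1 gene per culture, the highest ranked member of its culture with an entry, because these genes set the cultures apart. For Sema3d and Nrp1 the start is the gene's outer end, while for Sema3c it lies 2826 bases and for Robo2 1057338 bases inside the gene, which extends further upstream. Capitals mark matches on either strand. The motifs searched were the GC box, spelled GGGCGG, and the TATA box, spelled TATAAA. An E-box was searched as CAGCTG. The SOX core was searched as ACAAAG and as its variant with the letters ACAATG. Robo2 marked neuron cultures (chr11:26526413-26526662, minus strand), Sema3c astrocyte cultures (chr4:18699628-18699877, minus strand), Sema3d oligodendrocyte cultures (chr4:23460972-23461221, minus strand) and Nrp1 microglia cultures (chr19:73256307-73256556, plus strand).
Robo2: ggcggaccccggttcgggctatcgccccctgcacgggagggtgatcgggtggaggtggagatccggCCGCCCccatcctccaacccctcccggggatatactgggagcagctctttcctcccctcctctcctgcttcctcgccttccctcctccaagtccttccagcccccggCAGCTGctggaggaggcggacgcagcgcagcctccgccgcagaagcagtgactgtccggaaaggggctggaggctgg
Sema3c: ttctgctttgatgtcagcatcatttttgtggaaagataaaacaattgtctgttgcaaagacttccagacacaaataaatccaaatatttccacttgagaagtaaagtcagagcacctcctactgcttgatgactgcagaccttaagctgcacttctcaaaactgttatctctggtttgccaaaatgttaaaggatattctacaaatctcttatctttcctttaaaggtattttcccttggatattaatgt
Sema3d: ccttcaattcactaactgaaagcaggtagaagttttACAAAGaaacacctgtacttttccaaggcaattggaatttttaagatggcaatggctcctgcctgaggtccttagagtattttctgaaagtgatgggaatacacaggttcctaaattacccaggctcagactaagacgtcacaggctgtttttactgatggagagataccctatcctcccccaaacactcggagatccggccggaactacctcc
Nrp1: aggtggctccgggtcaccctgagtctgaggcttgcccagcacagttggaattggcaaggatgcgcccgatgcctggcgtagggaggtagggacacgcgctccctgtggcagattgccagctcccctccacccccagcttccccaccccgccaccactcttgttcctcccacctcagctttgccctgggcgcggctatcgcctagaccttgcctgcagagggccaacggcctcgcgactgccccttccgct

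The Robo2 stretch held 1 GC box and 1 E-box, the Sema3d stretch held 1 SOX core, and those of Sema3c and Nrp1 held none of these letters. GC content was 69.2% before Robo2 and 66.4% before Nrp1, but 44.8% before Sema3d and 35.2% before Sema3c. Over windows of 250 bases before to 50 after the start, the members' median GC content was 62.0%, and that of all 27457 promoters of the table was 52.3%. A GC box lay in 59.1% of the 44 members' windows and in 34.7% of all windows, and an E-box in 25% and 15.1%. A SOX core lay in 22.7% and 28.6%, and a TATA box in 0 of the members' windows and 14.3% of all. The promoters of the table were not limited to genes on the array, from which the members were drawn, so the sets compared were unlike. Such matches are letters in a window and say nothing of a factor's binding.

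Neuron cultures had the most members higher than in each other culture, and also the most of all genes (8.22%). Of the 12 members, 8 were receptors (Robo2, Epha3, Epha4, Epha5, Epha7, Ephb6, Plxna2 and Plxna4) and 4 were ligands (Efnb3, Efna5, Sema4f and Sema6b). For each of the 12, all 4 neuron arrays lay above all 12 other culture arrays. The 12 were chosen by differences on these same arrays, so this gives no further support, and its share over all genes was not computed. By family, 5 of the 8 EphA receptors were higher in neuron cultures than the mean of the others, as were 3 of 8 plexins, 5 of 10 class 4 to 7 semaphorins, 2 of 5 ephrins and 0 of 7 class 3 semaphorins. Of all genes, 13.1% were higher there.

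Robo2, a Slit receptor, had log2 values of 9.54, 9.36, 9.87 and 10.05 in neuron replicates 1 to 4, 6.25, 5.77, 5.67 and 4.96 in astrocyte, 5.01, 3.59, 3.58 and 3.28 in oligodendrocyte and 3.43, 3.31, 3.41 and 3.53 in microglia cultures. It was 41.9-fold higher in neuron cultures than the mean of the others (log2 difference 5.39 ± 0.26, where ± gives the SE of the fit, n = 4 against 12, limma adjusted p = 1.40e-10), and it was dim on all oligodendrocyte and microglia arrays. Efnb3, a transmembrane ephrin that signals to and from the cell that bears it, read 9.53, 9.25, 8.75 and 9.04 in neuron cultures, 4.30, 4.55, 4.50 and 4.40 in astrocyte, 4.98, 4.56, 4.78 and 4.49 in oligodendrocyte and 5.20, 4.87, 4.83 and 4.42 in microglia cultures. Dim in all 12 glial arrays, it was 22.4-fold higher in neuron cultures (4.48 ± 0.14, adjusted p = 1.68e-12) and had the largest gap of all members to the nearest other culture, 4.31 over microglia.

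Among the EphA receptors, which bind GPI-anchored ephrins and in some cases ephrin-B ligands, Epha5 read 8.52, 8.17, 8.54 and 8.59 in neuron cultures, 5.48, 5.12, 5.22 and 4.56 in astrocyte, 3.86, 3.97, 3.59 and 3.56 in oligodendrocyte and 4.26, 4.06, 3.41 and 3.67 in microglia cultures. Epha3 had 8.02, 7.61, 7.55 and 7.65 in neuron, 6.18, 5.14, 5.61 and 3.94 in astrocyte, 4.33, 4.10, 3.89 and 3.78 in oligodendrocyte and 3.81, 3.72, 3.85 and 4.23 in microglia cultures. Both were dim in all oligodendrocyte and microglia arrays, and astrocyte arrays lay between, with a wider spread for Epha3. Epha5 was 18.7-fold higher in neuron cultures (4.22 ± 0.17, adjusted p = 1.30e-11) and Epha3 10-fold (3.33 ± 0.27, adjusted p = 4.81e-08). Epha4, which binds ephrins of both classes, read 10.82, 10.93, 9.29 and 9.28 in neuron, 7.56, 8.06, 7.99 and 9.20 in astrocyte, 5.91, 6.74, 4.39 and 5.32 in oligodendrocyte and 4.67, 4.73, 4.85 and 4.81 in microglia cultures. Its neuron arrays split, with replicates 1 and 2 above replicates 3 and 4, and astrocyte replicate 4 (9.20) lay just below the lowest neuron array (9.28). Epha4 was 14.9-fold higher in neuron cultures than the mean of the others (3.90 ± 0.40, adjusted p = 5.94e-07) and was also called higher in astrocyte cultures (1.39 ± 0.40, adjusted p = 0.011), a call lost without astrocyte replicate 4 (1.06, adjusted p = 0.053). Epha7 and Ephb6, a receptor without kinase activity, were higher by 1.94 ± 0.14 and 1.65 ± 0.28. For Ephb6 the same replicates were apart, at 8.14, 8.43, 6.48 and 6.48 in neuron replicates 1 to 4, where all glial arrays lay between 5.35 and 5.96.

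Plxna2, a class A plexin that transmits semaphorin signals, read 8.37, 8.04, 7.63 and 7.99 in neuron cultures, 5.24, 5.79, 5.46 and 6.47 in astrocyte, 6.17, 5.71, 6.09 and 5.69 in oligodendrocyte and 5.98, 6.35, 5.98 and 6.19 in microglia cultures. No glial array reached the neuron level, and the gap to the mean of the others was 2.08 ± 0.18 (adjusted p = 1.23e-07). Plxna4 was higher by 1.38 ± 0.17, but without microglia replicate 1 it was no longer called above each other culture (1.31 against the mean of the others). Plxnc1, the receptor of Sema7a, was high in both neuron and microglia cultures, at 8.45, 8.22, 7.86 and 8.07 and 7.68, 7.92, 8.40 and 7.49, and called higher in both (1.75 ± 0.41 and 1.38 ± 0.41). A second Plxnc1 probe set put microglia first, with a mean of 8.31 there and 6.18 in neuron cultures, and the microglia call of the first was lost without microglia replicate 3 (1.20, adjusted p = 0.056).

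The ligands of the neuron block were membrane-bound. Sema4f read 8.67, 8.66, 7.41 and 7.63 in neuron cultures, 5.01, 5.17, 5.12 and 4.80 in astrocyte, 4.87, 4.56, 4.98 and 4.79 in oligodendrocyte and 4.86, 5.21, 4.92 and 4.79 in microglia cultures. Efna5, a GPI-anchored ephrin, read 7.97, 7.72, 7.54 and 7.55 in neuron cultures, 5.11, 5.46, 5.23 and 5.54 in astrocyte, 4.83, 5.12, 5.20 and 4.91 in oligodendrocyte and 5.18, 5.13, 5.51 and 4.73 in microglia cultures. Both were near or below the array medians in all glial cultures, and Sema4f was 8.99-fold (3.17 ± 0.20, adjusted p = 2.05e-09) and Efna5 5.78-fold (2.53 ± 0.13, adjusted p = 2.37e-10) higher in neuron cultures. Sema6b, a transmembrane semaphorin, was higher by 1.41 ± 0.14. Sema4a, Sema4d and Sema4g were called higher in neuron cultures but not above each other culture, with differences of 1.32 ± 0.39, 1.70 ± 0.41 and 1.36 ± 0.16. The Sema4a call was lost without neuron replicate 1 (1.11, adjusted p = 0.053).

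The 3 members lower in neuron cultures than in each other culture were the cue Ntn1 and the receptors Plxnb2 and Nrp2. Plxnb2, a receptor of class 4 semaphorins, read 8.29, 8.32, 8.16 and 8.35 in neuron cultures, 10.88, 11.04, 10.93 and 10.59 in astrocyte, 9.19, 9.58, 9.56 and 9.35 in oligodendrocyte and 10.83, 10.92, 11.05 and 11.08 in microglia cultures. These groups did not overlap with the neuron arrays, and Plxnb2 differed by -2.14 ± 0.09 from their mean (adjusted p = 3.96e-11), while it was called higher in astrocyte (1.30 ± 0.09) and microglia (1.45 ± 0.09) cultures. Nrp2, a neuropilin that binds Sema3f, read 6.87, 5.77, 7.25 and 7.22 in neuron, 9.07, 8.81, 8.64 and 8.66 in astrocyte, 7.30, 9.12, 7.63 and 7.51 in oligodendrocyte and 9.04, 8.56, 8.57 and 9.12 in microglia cultures. In neuron cultures it differed by -1.72 ± 0.30 from the mean of the others (adjusted p = 1.60e-04), though not against each other culture without neuron replicate 2 (-1.38) or oligodendrocyte replicate 2 (-1.58). Averaging both Nrp2 probe sets, of which 1 was dim in every culture, brought the difference to -0.94. Ephb1, Efna1, Nrp1, Plxnb1, Sema3b and Sema3d were also called lower in neuron cultures than the mean of the others. Of these, the Nrp1 call was lost without neuron replicate 2 (-0.91) or astrocyte replicate 4 (-0.95), and the Sema3b call without neuron replicate 2 or astrocyte replicate 3 (-1.0 each).

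Of the 7 secreted class 3 semaphorins, 2 were higher in astrocyte cultures than in each other culture, Sema3b and Sema3c, as 2 others were in oligodendrocyte cultures. Of all genes, 5.91% were so in astrocyte and 1.7% in oligodendrocyte cultures. Sema3c, which binds neuropilins, read 11.73, 11.77, 11.72 and 11.52 in astrocyte cultures, 8.14, 7.76, 8.72 and 8.60 in neuron, 7.76, 6.62, 6.82 and 7.56 in oligodendrocyte and 7.35, 6.89, 6.21 and 8.66 in microglia cultures. It was above the array medians everywhere and 17.1-fold higher in astrocyte cultures than the mean of the others (4.09 ± 0.33, adjusted p = 1.06e-07). Sema3b read 7.32, 7.40, 7.60 and 5.97 in astrocyte cultures and was dim on all other arrays, at 3.79, 3.50, 3.57 and 3.78 in neuron, 3.28, 3.65, 3.34 and 3.63 in oligodendrocyte and 3.48, 3.56, 3.58 and 3.74 in microglia cultures. Its difference was 3.50 ± 0.21 (adjusted p = 4.90e-09), or 11.3-fold, and the array of astrocyte replicate 4 was the lowest of the 4. The other 5 class 3 semaphorins did not share this pattern: Sema3d and Sema3e were called lower in astrocyte cultures (-2.10 ± 0.23 and -1.49 ± 0.42), and Sema3a, Sema3f and Sema3g were not called.

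The other 4 members higher in astrocyte cultures than in each other culture were Ephb4, Ntng1, Plxnb1 and Sema4b. Ephb4, an Eph receptor best known from blood vessels, read 5.27, 5.36, 5.49 and 6.32 in astrocyte cultures and was dim elsewhere, at 3.89, 3.90, 4.03 and 3.90 in neuron, 3.75, 3.75, 3.42 and 3.87 in oligodendrocyte and 4.06, 3.68, 3.85 and 3.87 in microglia cultures. The 7 endothelial markers averaged 3.50 to 4.18 on the culture arrays. Pericyte and smooth muscle markers (8 genes) averaged 6.74 to 7.75 in astrocyte cultures and 4.58 to 5.44 elsewhere, and 4 of the 8 were called higher in astrocyte cultures. Their part in the astrocyte values of Ephb4 and the other members was not tested. Ntng1, a membrane-anchored netrin relative that does not act through Dcc, read 5.93, 6.61, 6.82 and 7.45 in astrocyte, 5.19, 4.56, 5.32 and 5.67 in neuron, 4.15, 3.51, 3.81 and 3.85 in oligodendrocyte and 3.32, 3.56, 3.67 and 3.80 in microglia cultures. Both genes were highest on astrocyte replicate 4, and their differences from the mean of the others were 1.78 ± 0.15 (adjusted p = 1.59e-07) and 2.50 ± 0.23 (adjusted p = 3.32e-07).

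Plxnb1, the receptor of Sema4d, read 8.56, 8.42, 8.40 and 7.67 in astrocyte, 4.98, 5.27, 6.19 and 6.08 in neuron, 7.15, 6.97, 7.86 and 6.71 in oligodendrocyte and 6.27, 5.71, 5.70 and 4.83 in microglia cultures. Oligodendrocyte replicate 3 overlapped with astrocyte replicate 4, and Plxnb1 was higher by 2.12 ± 0.28 (adjusted p = 1.66e-05) in astrocyte cultures. It no longer passed against each other culture without astrocyte replicate 1, 2 or 3 or oligodendrocyte replicate 2 or 4 (2.02 to 2.10 against the mean of the others). Sema4b, a transmembrane semaphorin, read 7.20, 7.63, 7.66 and 6.24 in astrocyte, 5.97, 6.13, 6.11 and 6.05 in neuron, 5.99, 5.84, 5.69 and 5.90 in oligodendrocyte and 6.48, 6.02, 6.04 and 6.14 in microglia cultures. Astrocyte replicate 4 overlapped with the other cultures here, and the difference of 1.15 ± 0.19 (adjusted p = 1.62e-04) fell to 0.99 without astrocyte replicate 3. Without astrocyte replicate 2 or microglia replicate 2 or 3, Sema4b was not above each other culture (1.00 to 1.14 against the mean of the others).

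Sema4a, a semaphorin also active in immune cells, was the member lower in astrocyte cultures than in each other culture. It read 4.85, 5.45, 5.49 and 5.54 in astrocyte, 8.52, 8.37, 7.38 and 7.37 in neuron, 5.22, 6.87, 8.10 and 7.35 in oligodendrocyte and 6.78, 7.82, 8.01 and 7.61 in microglia cultures. Oligodendrocyte replicate 1 overlapped with the astrocyte arrays, and the difference was -2.12 ± 0.39 (adjusted p = 4.31e-04). It did not pass against each other culture without astrocyte replicate 1 or oligodendrocyte replicate 3 or 4 (-2.07 to -1.96).

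Several members stood apart on the array of astrocyte replicate 4. Slit3, a secreted repellent, read 4.82, 5.25, 5.24 and 9.43 in astrocyte replicates 1 to 4, and Slit2 read 6.22, 6.40, 6.30 and 8.76. The netrin receptor Unc5b read 5.71, 5.99, 5.92 and 8.43 and the Eph receptor Ephb3 read 5.03, 5.12, 4.81 and 7.62. Replicate 4 was the highest array in each case, and it was the array with the raised fibroblast and meningeal markers, whose part in these values was not tested. Replicate 4 was also the highest for Plxna1 (7.09, 7.22, 7.17 and 8.56), Nrp1 (5.71, 5.41, 5.21 and 7.49) and Sema3f (5.52, 5.93, 5.87 and 7.42). Slit3, Unc5b, Ephb3, Nrp1 and Sema3f were not called in astrocyte cultures, and the Slit2 call (1.05 ± 0.33, adjusted p = 0.019) shrank to 0.43 without this array. Without it, the astrocyte calls of Epha2 (0.99) and Plxnc1 (-0.74) were also lost, while Nrp1 (-1.26), Plxna1 (-1.06) and Plxna2 (-1.18) became lower and Nrp2 (1.01) higher. The calls of Efnb1 (1.03 ± 0.10) and Sema4g (1.05 ± 0.16) held without replicate 4 but were lost without replicate 3 (0.92 and 0.95), and that of Sema4g also without replicate 2 (0.99).

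All 7 members higher in oligodendrocyte cultures than in each other culture encode cues: 5 semaphorins (Sema3d, Sema3e, Sema5a, Sema6a and Sema6d), the ephrin Efna1 and netrin-1 (Ntn1). Oligodendrocyte precursor markers (6 genes) averaged 9.58 to 9.88 in these cultures, beside 8.53 to 10.65 for the 9 oligodendrocyte markers. The part of precursors in the values of the 7 members was not tested. Sema5a, a transmembrane semaphorin, read 8.47, 8.26, 8.92 and 9.21 in oligodendrocyte cultures, 5.49, 5.10, 5.75 and 6.19 in neuron, 5.43, 4.85, 4.58 and 4.28 in astrocyte and 5.70, 5.88, 4.19 and 4.94 in microglia cultures. Sema3d read 7.98, 7.25, 7.55 and 8.21 in oligodendrocyte cultures, 3.64, 3.53, 3.54 and 3.72 in neuron, 3.49, 3.57, 3.30 and 3.56 in astrocyte and 6.01, 6.07, 4.61 and 4.91 in microglia cultures. For both, oligodendrocyte arrays lay above all others, and Sema3d was dim in all neuron and astrocyte arrays. Sema3d was 12-fold higher (3.58 ± 0.23, adjusted p = 6.67e-08) and Sema5a differed by 3.52 ± 0.29 (adjusted p = 5.35e-07).

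Sema3d was next highest in microglia cultures, where replicates 1 and 2 were above 3 and 4. The oligodendrocyte markers in microglia replicates 1 to 4 had means of 8.07, 8.0, 6.67 and 7.62, and precursor markers (6 genes) 8.59, 8.35, 7.75 and 7.66. Whether oligodendrocyte RNA in these cultures gave their Sema3d values was not tested.

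Sema3e, which can signal through Plxnd1 without a neuropilin, read 9.79, 9.78, 9.72 and 10.54 in oligodendrocyte, 7.07, 6.31, 8.67 and 8.54 in neuron, 7.61, 6.53, 6.95 and 6.34 in astrocyte and 8.13, 7.86, 6.13 and 7.60 in microglia cultures. Neuron replicates 3 and 4 exceeded replicates 1 and 2 but stayed below all oligodendrocyte arrays, and the difference was 2.65 ± 0.42 (adjusted p = 1.86e-04). Sema6a, a transmembrane semaphorin bound by class A plexins, read 10.42, 10.28, 8.86 and 10.34 in oligodendrocyte, 7.91, 7.75, 8.78 and 8.93 in neuron, 7.91, 8.06, 7.94 and 7.41 in astrocyte and 8.40, 7.81, 7.29 and 7.82 in microglia cultures. Sema6d, which binds Plxna1, read 10.87, 10.83, 9.42 and 10.37 in oligodendrocyte, 8.43, 8.10, 9.40 and 9.46 in neuron, 9.25, 8.07, 8.03 and 7.46 in astrocyte and 7.89, 7.14, 6.50 and 8.48 in microglia cultures. Oligodendrocyte replicate 3 was the lowest of its group for both and fell within the range of the neuron arrays. That culture also had the lowest mean of the 9 oligodendrocyte markers, 8.53 against 9.69 to 10.65, and the part of this in the values was not tested. The differences were 1.97 ± 0.29 (adjusted p = 9.07e-05) for Sema6a and 2.19 ± 0.39 (adjusted p = 5.09e-04) for Sema6d. Sema6d did not pass against each other culture without neuron replicate 1 or 2 or oligodendrocyte replicate 1 or 2 (2.02 to 2.14 against the mean of the others).

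Efna1, a GPI-anchored ephrin, read 6.84, 7.20, 6.55 and 6.53 in oligodendrocyte, 4.07, 4.03, 4.33 and 4.25 in neuron, 4.90, 5.04, 5.09 and 4.96 in astrocyte and 5.45, 5.56, 4.50 and 4.85 in microglia cultures, with no overlap and a difference of 2.03 ± 0.17 (adjusted p = 5.02e-07). Ntn1 read 8.32, 8.39, 9.33 and 8.74 in oligodendrocyte, 6.04, 5.44, 5.53 and 6.03 in neuron, 6.69, 7.25, 7.38 and 7.95 in astrocyte and 8.23, 7.89, 7.31 and 7.29 in microglia cultures. The lowest oligodendrocyte array (8.32) was just above the highest microglia array (8.23), while neuron arrays were the lowest of all. Ntn1 was higher by 1.78 ± 0.24 in oligodendrocyte cultures (adjusted p = 3.85e-05) and differed by -2.14 ± 0.24 in neuron cultures (adjusted p = 1.38e-06). It no longer passed against each other culture without oligodendrocyte replicate 3 (1.57) or microglia replicate 3 or 4 (1.74 and 1.73), and 2 further Ntn1 probe sets were dim in every culture.

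Of the receptors, Ephb1 was the one called higher in oligodendrocyte cultures, at 8.47, 8.39, 7.19 and 8.22, with 7.17, 7.17, 7.15 and 7.88 in astrocyte, 6.67, 6.22, 5.77 and 5.95 in microglia and 5.86, 5.84, 5.37 and 5.41 in neuron cultures. It differed by 1.70 ± 0.22 from the mean of the others (adjusted p = 3.69e-05) but by 0.73 from astrocyte cultures (adjusted p = 0.052). Without oligodendrocyte replicate 3 the difference was 1.99, and it then passed against each other culture. Sema4d, at 6.67, 6.95, 3.95 and 6.32 in oligodendrocyte cultures, missed the call with all arrays (adjusted p = 0.076) and passed it without replicate 3 (1.68).

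In microglia cultures the 5 higher calls fell on semaphorin receptors, both neuropilins and 3 of 8 plexins, while 2 plexins were lower. Of all genes, 8.74% were higher and 11.2% lower there. Among the members, Nrp1 alone was higher than in each other culture. This neuropilin binds Sema3a and vascular endothelial growth factor. It read 9.50, 9.95, 9.39 and 9.33 in microglia cultures, 5.32, 5.04, 6.27 and 6.07 in neuron, 5.71, 5.41, 5.21 and 7.49 in astrocyte and 4.63, 5.06, 4.61 and 5.27 in oligodendrocyte cultures. Nrp1 was 16.4-fold higher in microglia cultures than the mean of the others (4.04 ± 0.33, adjusted p = 1.57e-07), and a second Nrp1 probe set had a mean of 9.51 there against 4.53 to 5.69. The oligodendrocyte cultures, in which microglia markers averaged 7.85 to 8.92, had the lowest mean Nrp1 value, 4.89. The part of microglial RNA in the Nrp1 values of these cultures was not tested.

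The other 4 receptors called higher in microglia cultures were Nrp2 (1.00 ± 0.30), Plxna1 (1.14 ± 0.28), Plxnb2 (1.45 ± 0.09) and Plxnc1 (1.38 ± 0.41). None of them was above each other culture, since Plxnb2 and Nrp2 did not pass against astrocyte cultures, nor Plxna1 and Plxnc1 against neuron cultures. The 95% interval of astrocyte minus microglia was -0.81 to 0.75 for Nrp2 and -0.35 to 0.13 for Plxnb2. That of neuron minus microglia was -0.92 to 0.53 for Plxna1 and -0.79 to 1.35 for Plxnc1, the widest of the 4. Nrp2 was at the threshold and lost its call without neuron replicate 2 (0.89) or any of 7 other single arrays (0.90 to 0.99).

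Unc5c, a repellent netrin receptor, was the member lower in microglia cultures than in each other culture. It read 5.74, 5.55, 5.46 and 5.44 in microglia, 7.31, 6.61, 7.47 and 7.55 in neuron, 7.68, 7.69, 7.79 and 7.13 in astrocyte and 7.62, 7.58, 7.22 and 7.34 in oligodendrocyte cultures. No array of another culture came down to the microglia level, and the difference was -1.87 ± 0.16 (adjusted p = 1.86e-07). A second Unc5c probe set was also called lower in microglia cultures and was called higher in astrocyte cultures. Its means were 3.81 in microglia, 4.42 in neuron, 4.95 in oligodendrocyte and 6.26 in astrocyte cultures, dim in all but the last. Of the 15 members lower in microglia cultures than the mean of the others, 8 were ligands and 7 receptors. Of these, Plxna3 lost its call without neuron replicate 1, oligodendrocyte replicate 3 or microglia replicate 3 (-1.0 to -0.89). Sema4f lost it without neuron replicate 1 or 2 or microglia replicate 4 (-0.98 to -0.97), Sema5a without microglia replicate 3 (-0.87).

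Known ligand and receptor partners were set side by side. Of 41 listed pairs, 31 had both genes on the array, and for 9 of these the ligand and the receptor had their highest mean in the same culture. In 4 of these 9 pairs a partner was dim in every culture. Both partners were called higher in some culture for 16 pairs, and in the same culture for 4, all of them in neuron cultures: Efna5 with Epha5, Efna5 with Epha7, Efnb3 with Epha4, and Sema6b with Plxna4. Among the pairs that peaked apart, Sema6a was higher in oligodendrocyte cultures (1.97 ± 0.29) and its receptors Plxna2 and Plxna4 in neuron cultures (2.08 ± 0.18 and 1.38 ± 0.17). Sema3c was higher in astrocyte cultures (4.09 ± 0.33) and its receptor Nrp1 in microglia cultures (4.04 ± 0.33). Sema4d was higher in neuron cultures (1.70 ± 0.41) and Plxnb1 in astrocyte cultures (2.12 ± 0.28), where Sema4d was lower (-2.02 ± 0.41). Slit2 and Robo2 peaked in astrocyte and neuron cultures, but Slit2 rested on astrocyte replicate 4 as above. The pair list was written by hand from textbook knowledge, and no chance level was computed for it.

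RNA mixtures gave a second set of arrays for the neuron and astrocyte differences, though their RNA came from cultures already measured. Neuron and astrocyte replicates 1 were the parents of replicate 1, and replicate 2 combined neuron replicate 2 with astrocyte replicate 4. Over the 6 arrays of NA1 to NA3, log2 expression was fitted against the neuronal fraction, and a slope was called at an adjusted p under 0.05. Members rose with neuronal RNA in 11 cases (19.0%) and fell in 5 (8.62%), beside 11% and 7.69% of all genes. With the replicate as a block, which pairs arrays that share parents, 19 (32.8%) rose and 12 (20.7%) fell, beside 14.5% and 17.2% of all genes. All 12 members higher in neuron cultures than in each other culture rose in the blocked fit, 9 of them also without the block. Of the 6 higher in astrocyte cultures, 5 fell in the blocked fit, 2 of them also without it. Both sets were chosen by differences between cultures that include the parents, so these directions were built into the choice. The share among all genes chosen in this way was not computed.

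In NA1, NA2 and NA3, Robo2 read 7.97, 8.67 and 9.15 in replicate 1 and 7.84, 8.61 and 9.03 in replicate 2 (slope 2.37 ± 0.24 per unit of neuronal fraction, adjusted p = 0.0041). Efnb3 read 7.91, 8.52 and 9.15, and 7.63, 8.60 and 9.06 (slope 2.67 ± 0.27, adjusted p = 0.0041), and Sema3c 11.55, 11.03 and 10.16, and 11.24, 10.74 and 9.87 (slope -2.76 ± 0.38, adjusted p = 0.0066). In these 3 genes the replicates ran close together. Slit3 did not: it read 5.68, 5.60 and 5.77 in replicate 1 and 8.32, 8.17 and 7.33 in replicate 2, whose astrocytic parent had 9.43. The high Slit3 value of astrocyte replicate 4 was thus seen again on 3 arrays with RNA of that culture, and not on those made from astrocyte replicate 1. The Slit3 slope was -0.89 ± 2.25 (adjusted p = 0.86).

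**Figure D3:**
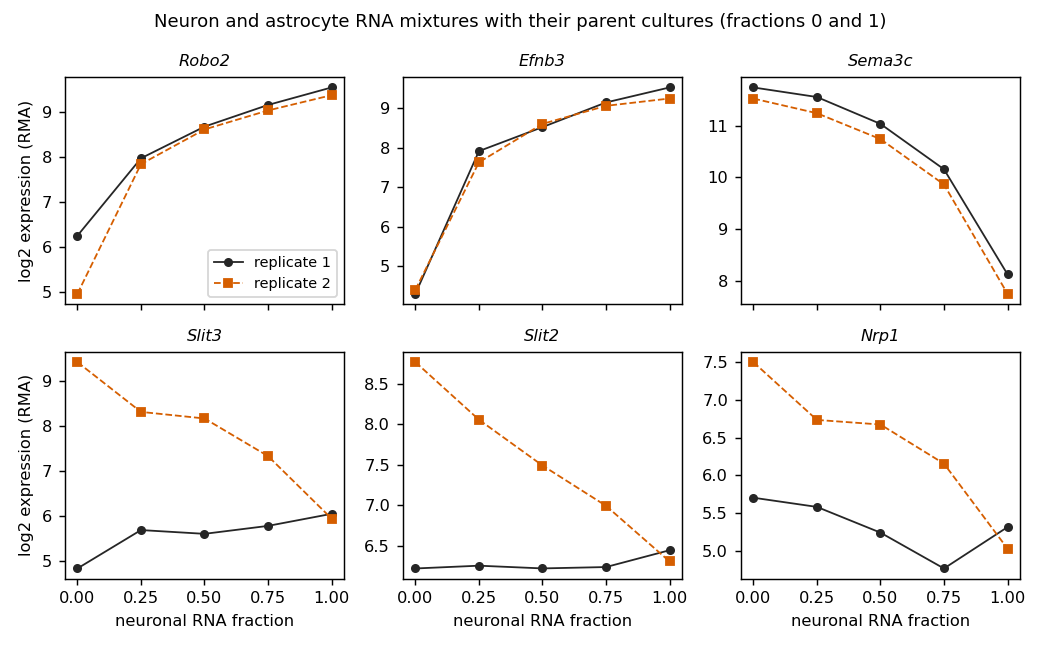
Log2 expression of 6 members against the neuronal RNA fraction in NA1, NA2 and NA3, with the parent cultures at fractions 0 (astrocyte) and 1 (neuron), for replicate 1 (circles, solid line) and replicate 2 (squares, dashed line). Robo2 and Efnb3 rise and Sema3c falls in both replicates, while Slit3, Slit2 and Nrp1 start at 9.43, 8.76 and 7.49 in replicate 2 and at 4.82, 6.22 and 5.71 in replicate 1.

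NAO differs from NA2 in that oligodendrocytic RNA takes the place of part of the astrocytic RNA. For all 7 members higher in oligodendrocyte cultures, both NAO arrays lay above both NA2 arrays, as they did for 20.1% of all genes. The 7 were chosen by their level in cultures that include the parents of this RNA. A rise was thus built into the choice and gives no separate support. Sema3d read 3.21 and 3.41 in NA2 and 4.62 and 5.42 in NAO, and Sema5a 5.40 and 4.97 in NA2 and 6.57 and 7.40 in NAO. Steps were smaller for Ntn1, from 6.54 and 6.74 to 6.91 and 7.47, and for Efna1, from 4.62 and 4.37 to 4.99 and 4.93. NAOM adds microglial RNA, and both its arrays exceeded both NAO arrays for Nrp1, at 6.90 and 6.24 against 4.94 and 5.61, as for 16.9% of all genes. Nrp1 was likewise chosen by its level in cultures that include the parents.

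**Figure D4:**
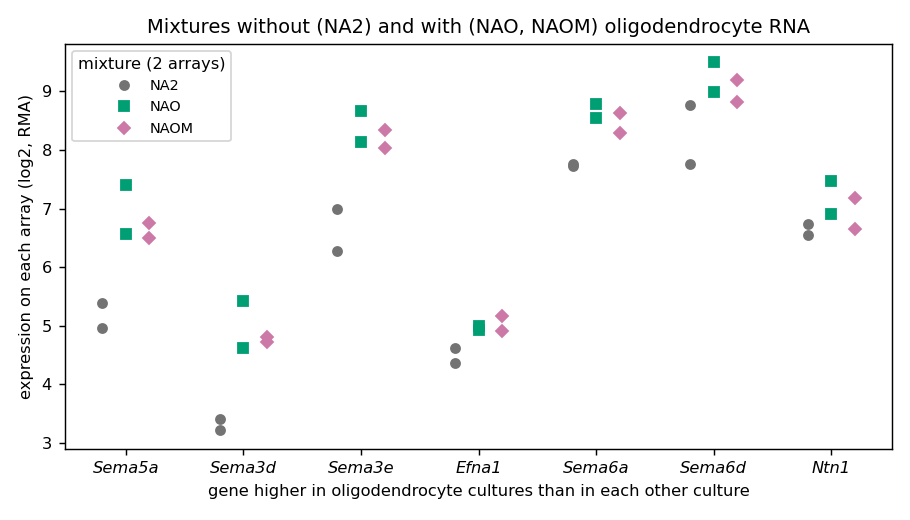
Log2 expression of the 7 members higher in oligodendrocyte cultures on the 2 arrays each of NA2 (no oligodendrocytic RNA, circles), NAO (squares) and NAOM (diamonds). For each gene both NAO arrays lie above both NA2 arrays, with Sema3d at 3.21 and 3.41 in NA2 and 4.62 and 5.42 in NAO.

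Against the mean of the other cultures, 18 of 58 members (31%) were called in no culture, as were 8528 of all 14217 genes. The range of culture means had a median of 0.52 for these 18 members against 1.97 over all members. Of the 18, 9 were dim in every culture: Epha6, Epha8, Ntn5, Robo3, Sema3a, Sema3g, Slit1, Unc5a and Unc5cl. They were 15.5% of the members, beside 3320 of all 14217 genes. Sema3a, the prototype repellent and a ligand of Nrp1, stayed between 4.57 and 4.98 on all culture arrays, so these arrays could not show whether its level differed. Slit1 read 4.95, 4.72, 4.38 and 4.58 in neuron cultures and 4.00, 4.43, 4.13 and 4.44 in astrocyte cultures, a difference of 0.62 ± 0.11 from the mean of the others (adjusted p = 1.38e-04), under the minimum of 1. Robo1 differed by 0.56 ± 0.10 (adjusted p = 2.01e-04) in neuron cultures, and Plxnd1 by 0.90 ± 0.26 (adjusted p = 0.0098). In pairs of cultures, Plxnd1 was called higher in neuron than in astrocyte (1.21) and oligodendrocyte cultures (1.03). It passed the minimum against the mean of the others without microglia replicate 4 (1.04), which at 7.81 lay above the other microglia arrays (5.99 to 6.35). Efna4, Ephb3, Sema3f, Sema6c, Slit3, Unc5b and Unc50 made up the rest, of which Slit3, Unc5b, Ephb3 and Sema3f had the high astrocyte array given above. Unc5b also varied among oligodendrocyte cultures, at 8.13, 7.56, 4.85 and 6.11.

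The 58 members had 97 probe sets, and 24 genes had several. Of the 39 probe sets not used, 35 had their highest mean in the same culture as the one used, 0 had a call in the opposite direction and 19 were dim in every culture. Calls were repeated less fully: of 73 calls of the used probe sets set against another probe set of the gene, 28 were made there too, and 27 of 42 where the other probe set was not dim throughout. A second Sema3f probe set was called higher in astrocyte cultures, where the one used was not. The 4 with another highest culture belonged to Plxnc1, Epha7, Sema5a and Sema6c, and for the last 3 genes they were dim throughout.

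Other genes of the pathway were read from 2 lists. Shares of all genes called are those given above, such as 13.1% higher and 15.5% lower in neuron and 11.6% and 8.82% in astrocyte cultures. Of 25 measured co-receptors and other cues, 12 were higher and 2 lower in neuron cultures, 7 and 5 in astrocyte, 2 and 6 in oligodendrocyte, and 1 and 8 in microglia cultures. Of 52 measured growth cone signal transducers, 17 were higher and 7 lower in neuron cultures, 9 and 13 in astrocyte, 8 and 8 in oligodendrocyte, and 6 and 14 in microglia cultures. In oligodendrocyte cultures 6.77% and 6.06% of all genes were higher and lower, and in microglia cultures 8.74% and 11.2%. Median differences in neuron cultures were 0.89 and 0.28, where that of all genes was -0.10. The largest neuron differences were those of L1cam, an adhesion molecule of axons that is also 1 of the 10 neuron markers (5.18 ± 0.23), Ngef, an exchange factor downstream of EphA receptors (4.89 ± 0.21), and Dpysl5, a collapsin response mediator (4.63 ± 0.26). Cxcr4, the chemokine receptor, was lower in neuron (-3.14 ± 0.24) and higher in microglia cultures (2.58 ± 0.24), and its ligand Cxcl12 was higher in astrocyte cultures (3.57 ± 0.57). Chn2, a Rac regulator, was higher in oligodendrocyte (3.37 ± 0.33) and lower in astrocyte cultures (-4.51 ± 0.33), and Fes, a kinase linked to Plxna1, was higher in microglia cultures (3.38 ± 0.14). Adjusted p-values of these genes lay between 2.85e-11 (Ngef) and 0.00011 (Cxcl12).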

How the data were processed

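The deposited values are log2 expression values that the authors made with RMA in the affy package, per the submitters' processing notes, which give no version. RMA corrects background, quantile-normalizes arrays and summarises probes into probe sets, so values are relative within these 26 arrays, whose number limits the precision. Of 31099 probe sets, 57 controls were left out and 31042 tested with no filter on low values. GEO's platform annotation gave 1 symbol for 20826, several for 436 and none for 9780, and matching gene identifiers to RefSeq changed 0 symbols. Microglia replicate 4, whose description reads as a mixture while its title and cell type do not, was kept as a culture.

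A limma fit (version 3.58.1 in R 4.3.3, lmFit then eBayes) gave each culture its mean over 16 arrays. Mixtures NA1 to NA3 were fitted with intercept and slope over 6 arrays. A fold is 2 raised to the log2 difference. Replicate numbers did not pair the cultures (r of same-numbered residuals -0.107 to 0.178 over 24 pairs) but did pair the mixtures (0.381 to 0.873 over 10 pairs), whose parents the labels give. Values are printed on every array for members called against each other culture, at most 8 per culture and direction, and for pathway genes the largest differences among those called. The members and lists were chosen with earlier results of these data known. Python 3.11.15, pandas 2.3.3 and matplotlib 3.10.9 served for promoters and figures. Alternatives were other normalizations, filters, minimum differences, variance models, probe set choices, a replicate block and leaving out each replicate.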

Additional observations from a re-analysis of the deposited data

Results flagged for a closer look

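Among the 232 groups of 4 culture arrays (58 members in 4 cultures), 15 had 1 array far from the other 3 by Dixon's test, where chance alone flags about 5% of groups. Astrocyte replicate 4 gave 6 of them by a high value: Slit3 at 9.43 against 4.82 to 5.25 on the other 3 arrays, Slit2 at 8.76 against 6.22 to 6.40, Unc5b at 8.43 against 5.71 to 5.99, Ephb3 at 7.62 against 4.81 to 5.12, Plxna1 at 8.56 against 7.09 to 7.22 and Ephb1 at 7.88 against 7.15 to 7.17. It gave another by a low value, Sema3b at 5.97 against 7.32 to 7.60. On this array the fibroblast and meningeal markers averaged 8.19 against 6.02 to 6.16, and their part in these values was not tested.

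In oligodendrocyte cultures, Sema6a was low in replicate 3 at 8.86 against 10.28 to 10.42, Sema3e was high in replicate 4 at 10.54 against 9.72 to 9.79, and Efnb1 was high in replicate 1 at 5.18 against 4.87 to 4.91. In neuron cultures, Epha5 was low in replicate 2 at 8.17 against 8.52 to 8.59, and the dim Ephb4 stood at 4.03 in replicate 3 against 3.89 to 3.90. In microglia cultures, Plxna3 was low in replicate 3 at 5.83 against 6.43 to 6.52, and the dim Robo3 stood at 3.82 in replicate 1 against 3.91 to 3.93. Sema4a was low in astrocyte replicate 1 at 4.85 against 5.45 to 5.54.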

How the results depend on the processing

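Counts of members moved by over 1.5 times under few alternatives. A minimum difference of 0.58 gave 14 members lower in astrocyte cultures. A minimum of 2 left 8 higher and 2 lower in neuron, 4 and 3 in astrocyte, 5 and 4 in oligodendrocyte, and 1 and 2 in microglia cultures, and 6, 2 and 3 members above each other culture in neuron, astrocyte and oligodendrocyte cultures, with 0 below each other culture in any. Averaging all probe sets of a gene left 3 members higher in microglia cultures and 3 lower than in each other culture in all (5 with 1 probe set per gene). The slope gave 19 rising and 12 falling members with the replicate block, and 16 to 17 rising and 14 to 15 falling when 1 replicate was left out, a fit with 3 arrays. Slopes changed sign for Sema5a (0.44), Sema6d (0.37, or -0.95 without replicate 2) and Unc5c (0.45, or -1.19 without replicate 2) without replicate 1, and for Sema6a (-0.56, or 0.96 without replicate 1) without replicate 2. With arrays centred on their medians the Sema5a slope was 0.016. None of these slopes was called with all arrays. The cause was not tested. In the cultures, the replicate block, median centring, quantile normalization, array weights, a trended and robust variance and removal of the dimmest 25% of probe sets moved no count by that much. Leaving out single culture arrays gave 16 to 18 higher and 7 to 9 lower in neuron, 10 to 13 and 7 to 9 in astrocyte, 8 to 9 and 12 to 15 in oligodendrocyte, and 4 to 5 and 13 to 17 in microglia cultures. Dim levels limit what the 9 members dim in every culture can show.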
